A study of Homo sapiens with 8 samples.

Results

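The genes described here are 41 human enzymes that build, sulfate or trim glycosaminoglycans, the long sugar chains of the extracellular matrix and cell surface. They were chosen by function, as a list of gene symbols. All 41 had a row among the 54174 symbols of the deposited table, and 39 had a value in all 8 libraries and were tested. HS6ST2, a heparan sulfate sulfotransferase, was blank in every library. HS3ST1, another, had a single value of -8.73 on the log2 scale, in knockout library 4, and was not tested.

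Heparan sulfate and chondroitin sulfate are attached to core proteins through a shared linkage of sugars, then lengthened by polymerases and decorated with sulfate groups by families of sulfotransferases. The pattern of sulfate decides which growth factors, chemokines and enzymes the chains can bind. Hyaluronan differs from both in that it has no core protein and no sulfate and is made at the plasma membrane. All of them draw on the same activated sugars, and the sulfated ones on the same sulfate donor.

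RNA was sequenced from 143B cells, an established human osteosarcoma line, grown in DMEM with fetal bovine serum. The control group was 4 libraries from cells transfected with a vector plasmid for 48 h, and the knockout group was 4 libraries from cells transfected for 48 h with a plasmid labelled NELL1KO. The transfection was transient, and selected or cloned knockout cells are not described in the labels. The deposited values are log2 levels that had been brought to one distribution in every library (quantile normalization), so each difference is relative to the rest of the transcriptome. No counts are given, so the depth behind each value is unknown. NELL1 itself, which encodes a secreted matrix protein, was near the bottom of the measured range. The controls had a mean of -5.87 ± 1.29 (SD, n = 4), the 3 knockouts with a value had a mean of -5.88 ± 1.07 (SD, n = 3), and its level did not separate the groups (exact two-sided permutation test, p = 1, smallest possible 0.0286). Whether the gene was disrupted therefore could not be checked from its transcript.

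The libraries were not evenly spread. Over the 9016 genes with a mean of at least 1, the SD of the difference between libraries was 0.12 for knockout libraries 1 and 2, 0.13 for knockout libraries 3 and 4, and 0.46 to 0.50 between those pairs, against 0.36 to 0.45 between a knockout and a control library. Between control libraries it was 0.10 to 0.29, with the lowest value for control libraries 1 and 2. Because of the knockout pairs, results are also given with each pair counted as 1 library and the 4 controls kept separate. Differences are also given separately within replicates 1 and 2 and within replicates 3 and 4. Nothing in the labels says how these sets were made, and no gene was tested for a difference between them. The summed level of the 10 osteoblast lineage markers was 5.67 to 6.52 in the controls and 6.39 to 6.67 in the knockouts on the log2 scale. SP7 and IBSP among them were blank in every library, and RUNX2 was between 0.05 and 0.43. SPARC was higher in every knockout library (6.06 to 6.15) than in any control (5.23 to 5.94; limma adjusted p = 0.0294), a call kept in 1 of the 8 fits that left out a library and lost with knockout pairs averaged (0.155). The summed level of the blood cell markers was 5.75 to 5.93 in the controls and 5.57 to 5.95 in the knockouts, set mostly by CD68 (5.54 to 5.90), while PTPRC, CD3E and HBB were blank throughout. LCP1, also on that list, was 0.04 to 0.23 in the controls, 1.95 and 1.67 in knockout libraries 1 and 2, and -0.17 and -0.03 in knockout libraries 3 and 4, and CD14 had values in 6 libraries, from -4.90 to -2.67. The 5 endothelial markers had a summed level of -3.20 to -1.40 in the controls and -2.41 to -0.59 in the knockouts. The summed level of the 5 chondrocyte markers was 4.14 to 4.23 in the controls and 3.07 to 4.58 in the knockouts. The summed level of the 7 epithelial markers, set mostly by the keratin genes KRT8 and KRT18, was 9.06 to 9.18 in the controls and 9.26 to 9.46 in the knockouts, and KRT8 was called higher (0.38; limma adjusted p = 0.0176; 0.104 with knockout pairs averaged). KRT18 differed by 0.19, EPCAM by -0.32 and CLDN4 by -0.68, and none of them was called. EPCAM was 2.38 to 2.75 in the controls, 2.55 and 2.76 in knockout libraries 1 and 2, and 1.83 and 1.94 in knockout libraries 3 and 4. CDH1, the defining epithelial cadherin, had a value in control libraries 2 and 3 alone, at -7.49 and -7.40. The part of these markers in the results below was not tested.

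Of the 39 enzymes tested, 7 differed between the groups at a limma adjusted p-value under 0.05: CHPF, NDST2, CSGALNACT2, PAPSS1 and SULF1 fell in the knockout libraries and HS3ST3B1 and CHSY3 rose. Among the 26 enzymes with a mean of at least 1 on the log2 scale, which were tested together with all genes above that level, 4 were called and all 4 fell (15.4%). Of all 9016 genes in that fit, 13.1% were called, 6.10% lower and 7.02% higher. The other 13 enzymes had a mean under 1 and were read from a fit of all 13943 genes with 8 values. In that fit 3 of the 13 were called, 2 higher and 1 lower, against 8.24% of the 4927 genes that also had a mean under 1 (4.85% higher and 3.39% lower) and 8.30% of all 13943. Read for all 39 enzymes, the same fit called 6, without PAPSS1 (limma adjusted p = 0.0534). With the replicate number as a block, 5 of the 26 were called (10.2% of the 9016 genes) and 1 of the 13 (4.12% of the 4927). The median log2 difference of the 39 enzymes was -0.13, against 0.02 for all genes with 8 values, and 23 of the 39 differences were below 0. The groups were fully separate for 13 of the 39 enzymes, 9 lower and 4 higher in the knockout libraries. Among all genes with 8 values 20.4% were separate in this way, 9.02% lower and 11.3% higher. With each knockout pair counted as 1 library, none of the 39 passed the limma test, while 1.20% of the 9016 genes did and 0.00717% of the 13943, a single gene. In that reading 12 enzymes had an unadjusted p-value under 0.05, 7 of the 26 and 5 of the 13. So did 1854 of the 9016 genes and 2406 of the 13943. In the main fits of all 8 libraries 2675 of the 9016 genes and 3708 of the 13943 had an unadjusted limma p-value under 0.05.

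None of the linkage enzymes passed the test. XYLT1 and XYLT2 place the xylose on the core protein, B4GALT7 and B3GALT6 add the galactoses, B3GAT3 adds the glucuronic acid that completes the linkage, and FAM20B phosphorylates the xylose. In limma 1 of the 6 had an unadjusted p-value under 0.05, and their log2 differences lay between -0.15 and 0.16. FAM20B was 3.33, 3.32, 3.30 and 3.39 in control libraries 1 to 4 and 3.21, 3.18, 3.18 and 3.14 in knockout libraries 1 to 4. Every knockout value lay below every control value, but the difference of -0.15 ± 0.06 (SE, n = 4 per group) did not pass the test (limma adjusted p = 0.110). B3GAT3 was the reverse, with knockout values of 2.78 to 2.90 above control values of 2.52 to 2.75 and a difference of 0.16 (limma adjusted p = 0.172). XYLT2, B3GALT6 and XYLT1 had differences of -0.13, -0.11 and -0.05 with overlapping groups. B4GALT7 was 3.55 and 3.45 in knockout libraries 1 and 2, above every control (3.15 to 3.23), and 3.10 and 2.91 in knockout libraries 3 and 4, below every control.

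The 4 enzymes that polymerize heparan sulfate did not pass the test either (limma; 1 had an unadjusted p-value under 0.05). EXT1 and EXT2 form the polymerase, EXTL3 starts the chain and EXTL2 acts on the linkage. EXT1 was 3.44, 3.45, 3.49 and 3.48 in control libraries 1 to 4 and 3.32, 3.34, 3.10 and 3.21 in knockout libraries 1 to 4. The groups did not overlap, and the difference was -0.22 ± 0.07 (SE; limma adjusted p = 0.0745). Its partner EXT2 differed by 0.12 in the other direction, with a 95% interval from -0.05 to 0.30. EXTL2 and EXTL3 separated the knockout pairs from each other. EXTL2 was 1.96 to 2.02 in the controls, 2.20 and 2.27 in knockout libraries 1 and 2, and 1.59 and 1.56 in knockout libraries 3 and 4. EXTL3 was 3.05 to 3.18 in the controls, 2.82 and 2.84 in knockout libraries 1 and 2, and 3.37 and 3.38 in knockout libraries 3 and 4. In both genes the knockout pairs lay on opposite sides of all 4 controls.

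Among the enzymes that modify heparan sulfate, NDST2 fell and HS3ST3B1 rose. NDST2 replaces the acetyl group of glucosamine with sulfate, the step on which the later sulfations depend. It was 1.70, 1.68, 1.92 and 1.78 in control libraries 1 to 4 and 1.46, 1.32, 1.10 and 0.97 in knockout libraries 1 to 4, so that every knockout value lay below every control value. NDST2 fell by 0.56 ± 0.12 (SE) on the log2 scale, to 0.679 times the control level (limma adjusted p = 0.0180). Within replicates 1 and 2 the difference was -0.30, and within replicates 3 and 4 it was -0.82. Counted with knockout pairs averaged, the limma adjusted p was 0.0841, and it was 0.0504 without control library 1 and 0.0630 without control library 4. Its paralogue NDST1, which catalyses the same reaction, was 2.41 to 2.69 in the controls and 2.55 to 2.71 in the knockouts, a difference of 0.09 (95% interval -0.08 to 0.27). In GENCODE 29, exons of NDST2 overlap those of AC022400.6, a protein coding model on the same strand, and reads from the pair may not have been separable.

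HS3ST3A1 and HS3ST3B1 are paralogues that add the last and rarest sulfate of heparan sulfate, on a glucosamine, the kind of site used by herpes simplex virus glycoprotein D for entry. HS3ST3B1 was -0.67, -0.41, -0.62 and -0.52 in control libraries 1 to 4 and 0.18, 0.34, 0.27 and 0.18 in knockout libraries 1 to 4. All 4 knockout libraries were higher than all 4 controls, at almost the same level in both knockout pairs. The log2 difference was 0.80 ± 0.08 (SE), a level 1.74 times that of the controls (limma on all 13943 genes, adjusted p = 0.00385), with 0.80 in each set of replicates. It remained under 0.05 in each of the 8 fits that left out a library and with the replicate number as a block (limma adjusted p = 0.0323), and was 0.0748 with knockout pairs averaged. HS3ST3A1 was -0.45, -0.35, -0.38 and -0.17 in control libraries 1 to 4 and 0.70, 0.57, 0.03 and -0.01 in knockout libraries 1 to 4. These groups did not overlap either, but the knockout pairs were unequal (1.03 and 0.28 above the controls of the same set), and the difference of 0.66 ± 0.18 (SE) did not pass the test (limma adjusted p = 0.0610). Of the 11 paralogue pairs among the enzymes, this one alone shared stretches of 50 identical bases between its GENCODE 29 transcripts: 21.2% of such windows in the longest HS3ST3A1 transcript also occurred in HS3ST3B1. Reads from those stretches could have been assigned to either gene, so the values of this pair are not fully separate measurements.

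The genes of this pair lie on chromosome 17 of GRCh38.p14 in RefSeq, HS3ST3A1 at chr17:13494032-13601929 and HS3ST3B1 at chr17:14301081-14349404. Their promoters are shown because both genes were higher in all 4 knockout libraries than in any control. Each is the 250 bases before the RefSeq start, 5′ to 3′ on the strand of the gene: chr17:13601930-13602179 on the minus strand for HS3ST3A1 and chr17:14300831-14301080 on the plus strand for HS3ST3B1. Capitals mark GGGCGG, the GC box, and TGACGTCA, the cyclic AMP response element, on either strand.
HS3ST3A1: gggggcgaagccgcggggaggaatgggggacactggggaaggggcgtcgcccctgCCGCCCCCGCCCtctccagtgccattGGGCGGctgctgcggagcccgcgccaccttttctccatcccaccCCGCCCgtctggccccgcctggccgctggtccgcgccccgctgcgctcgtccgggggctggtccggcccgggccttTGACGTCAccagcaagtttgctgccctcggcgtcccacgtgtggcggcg
HS3ST3B1: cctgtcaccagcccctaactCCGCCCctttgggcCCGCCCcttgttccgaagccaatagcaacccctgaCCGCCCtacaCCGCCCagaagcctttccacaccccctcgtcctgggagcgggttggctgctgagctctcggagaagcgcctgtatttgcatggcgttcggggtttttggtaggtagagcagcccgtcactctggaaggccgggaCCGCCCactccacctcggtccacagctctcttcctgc
The HS3ST3A1 window was 76% G and C with 29 CG pairs, and the HS3ST3B1 window 64% with 15, where the median of all 35116 RefSeq windows of this length was 58% and 11. The GC box occurred 4 times in the first and 5 times in the second. It was common in general, in 42.6% of all windows. The 35 enzymes found in the table had 49 windows, of which 41 (83.7%), from 34 of the 35 enzymes, held it. Both windows also held CCAAT, as did 32% of all windows and 14 of the 49 enzyme windows (28.6%), from 11 of the 35 enzymes. The response element, added to the search after the sequences had been read, occurred once in the HS3ST3A1 window and not in that of HS3ST3B1, and 1.65% of all windows held it. It was also found for CHPF and B3GAT3, so that 3 of the 35 enzymes and 3 of their 49 windows (6.12%) had it. The E-box CACGTG was in the HS3ST3A1 window alone of the pair, and in 6.34% of all windows. In the HS3ST3A1 window the CCAAT match shares bases with one of the GC boxes. The TATA box (TATAAA, in 10.7% of all windows), the AP-1 pattern (TGANTCA, 6.57%), the kappaB site (9.96%) and the CArG box (1.16%) were in neither window. All motifs were searched on both strands, and a match describes letters only.

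The remaining heparan sulfate modifiers were not called. GLCE, the epimerase that turns glucuronic into iduronic acid, had a difference of -0.13 (95% interval -0.31 to 0.04). HS6ST1, which sulfates glucosamine, was 1.70 to 1.72 in all knockout libraries, inside the wide control range of 1.21 to 2.11. HS2ST1, which sulfates the iduronic acid, was 2.14 to 2.35 in the controls, 2.51 and 2.46 in knockout libraries 1 and 2, and 1.74 and 1.71 in knockout libraries 3 and 4, so the mean difference of -0.13 combined 0.18 from one set of replicates with -0.44 from the other.

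The extracellular sulfatases SULF1 and SULF2, which strip sulfate from finished heparan sulfate chains and so alter growth factor binding, were both lower in every knockout library than in any control. SULF1 was -2.63, -1.92, -1.20 and -1.41 in control libraries 1 to 4 and -3.03, -3.00, -3.65 and -2.95 in knockout libraries 1 to 4, far down the measured range. Its log2 difference was -1.36 ± 0.32 (SE), a level 0.388 times that of the controls (limma on all 13943 genes, adjusted p = 0.0416). That call depended on most libraries: it was kept only without control library 1, and the limma adjusted p was 0.103, 0.0636 and 0.117 without control libraries 2, 3 and 4 and 0.0737, 0.0735, 0.0948 and 0.0727 without knockout libraries 1 to 4. It was also lost with the replicate number as a block (0.0974), with knockout pairs averaged (0.200) and with a pseudocount of 1, where the difference was -0.23.

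SULF2 was 4.25, 4.23, 4.68 and 4.42 in control libraries 1 to 4 and 2.74, 3.02, 3.92 and 3.98 in knockout libraries 1 to 4. The knockout libraries were all below the controls, with libraries 1 and 2 the lowest. The log2 difference was -0.98 ± 0.28 (SE), a level 0.507 times that of the controls, and missed the threshold in the fit of all 8 libraries (limma adjusted p = 0.0528). The replicate block gave 0.0313. Of the 8 fits that left out a library, only 2 were under 0.05, those without knockout library 3 (0.0460) and without knockout library 4 (0.0349). The highest limma adjusted p among the 8 was 0.130. With knockout pairs averaged it was 0.132. Replicates 1 and 2 gave -1.36, replicates 3 and 4 gave -0.60. HPSE, the heparanase that cuts the chains, was 0.56 to 0.71 in the controls, 1.40 and 1.16 in knockout libraries 1 and 2, and 0.29 and 0.18 in knockout libraries 3 and 4, on opposite sides of the controls. Exons of SULF2 overlap those of NCOA3 and AL354813.1 on the opposite strand in GENCODE 29, and whether the counting used strand is not given in the sources used here.

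**Figure D1:**
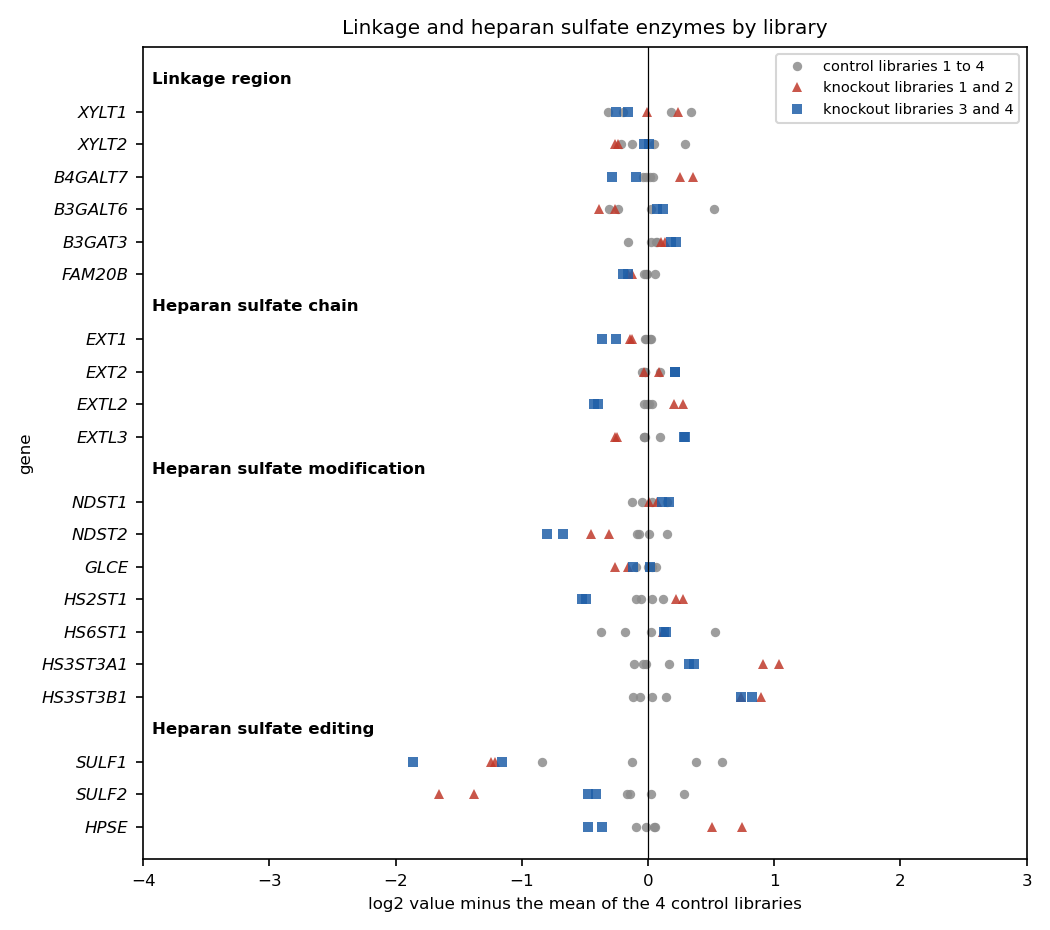
Log2 value of each library minus the mean of the 4 control libraries (x axis) for the 20 tested linkage and heparan sulfate enzymes (y axis, grouped by role), with control libraries as grey circles, knockout libraries 1 and 2 as red triangles and knockout libraries 3 and 4 as blue squares. HS3ST3A1 and HS3ST3B1 lie to the right of their controls and NDST2, SULF1 and SULF2 to the left in all 4 knockout libraries, whereas EXTL2, EXTL3, HS2ST1 and HPSE have the knockout pairs on opposite sides.

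Of the 6 genes that start and lengthen chondroitin sulfate, CHPF and CSGALNACT2 fell and CHSY3 rose. CHPF is a partner that the chondroitin synthases need for efficient polymerization. It was 3.48, 3.48, 3.64 and 3.57 in control libraries 1 to 4 and 3.12, 2.92, 3.10 and 2.96 in knockout libraries 1 to 4. The groups were well apart and the knockout pairs alike. CHPF fell by 0.52 ± 0.07 (SE) on the log2 scale, to 0.699 times the control level (limma adjusted p = 0.00552), with -0.46 from one set of replicates and -0.58 from the other. Its call held in all 8 fits that left out a library (highest limma adjusted p = 0.0294), and averaging the knockout pairs gave 0.0512. RefSeq places CHPF at chr2:219538954-219543809, and in GENCODE 29 its exons overlap those of TMEM198 on the opposite strand.

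CHSY3, a chondroitin synthase, was -1.60, -1.52, -1.40 and -1.36 in control libraries 1 to 4 and -0.94, -0.77, -1.01 and -0.90 in knockout libraries 1 to 4. All knockout values were above all control values. CHSY3 rose by 0.56 ± 0.09 (SE) on the log2 scale, to 1.48 times the control level (limma on all 13943 genes, adjusted p = 0.0126). The call was lost with the replicate block (0.0546), without control library 2 (0.0504) and with knockout pairs averaged (0.117). Its paralogue CHSY1 was 3.07 to 3.22 in the controls, 2.99 and 3.03 in knockout libraries 1 and 2, and 3.74 and 3.75 in knockout libraries 3 and 4, and was not called (limma adjusted p = 0.480). RefSeq places CHSY3 at chr5:129903979-130186634, where GENCODE 29 has the antisense gene AC008591.1 over some of its exons.

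CSGALNACT2 adds the N-acetylgalactosamine that commits the linkage to chondroitin. It was 3.84, 3.80, 3.69 and 3.75 in control libraries 1 to 4 and 3.19, 3.37, 3.25 and 3.58 in knockout libraries 1 to 4. The groups did not overlap, although knockout library 4 came near the lowest control. The log2 difference was -0.42 ± 0.09 (SE), a level 0.747 times that of the controls (limma adjusted p = 0.0240). It was lost without control libraries 1, 2 and 4 (0.0783, 0.0784 and 0.0723), without knockout library 3 (0.0603) and with knockout pairs averaged (0.0764). CSGALNACT1, with the same activity, was -3.50, -4.02, -2.48 and -2.73 in the controls, -5.32 and -5.05 in knockout libraries 1 and 2, and -1.94 and -1.68 in knockout libraries 3 and 4. The knockout pairs of CSGALNACT1 therefore stood more than 3 log2 units apart (a gap of 3.38) on either side of the controls, and the mean difference of -0.31 had a 95% interval from -2.42 to 1.80. CHPF2, the paralogue of CHPF, was 2.11 and 2.15 in knockout libraries 1 and 2, below every control (2.59 to 3.03), but 2.70 and 2.67 in knockout libraries 3 and 4, and was not called (limma adjusted p = 0.210).

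None of the 8 enzymes that sulfate or epimerize chondroitin and dermatan sulfate was called (limma; 1 had an unadjusted p-value under 0.05), and their log2 differences lay between -0.42 and 0.27. UST, which sulfates the uronic acid, was 1.00 to 1.30 in the controls and 0.47, 0.65, 0.86 and 0.97 in knockout libraries 1 to 4. The groups did not overlap, but the difference of -0.38 ± 0.13 (SE) missed the threshold (limma on all 13943 genes, adjusted p = 0.106). CHST11, the main chondroitin sulfotransferase of cartilage, was 1.90 to 2.23 in the controls and 2.06 and 2.05 in knockout libraries 1 and 2, but 1.21 and 1.19 in knockout libraries 3 and 4. DSE, the epimerase that converts chondroitin to dermatan sulfate, had the same arrangement, with 1.93 to 2.09 in the controls, 1.91 and 2.02 in knockout libraries 1 and 2, and 1.50 and 1.45 in knockout libraries 3 and 4. CHST14, which sulfates dermatan, was instead highest in knockout libraries 3 and 4, at 3.29 and 3.30 against 2.27 to 2.88 in the controls and 2.23 and 2.35 in knockout libraries 1 and 2. CHST15, which adds a further sulfate to an already sulfated galactosamine, was 0.40 to 1.00 in the controls and 0.32 to 0.71 in the knockouts. CHST3, CHST7 and CHST12 had differences of 0.11, 0.23 and 0.10 with overlapping groups.

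The hyaluronan synthases HAS2 and HAS3 did not pass the test, and neither had an unadjusted limma p-value under 0.05. HAS2, the main synthase of mesenchymal cells, was -2.31, -2.32, -1.88 and -2.04 in control libraries 1 to 4 and -3.96, -4.83, -2.09 and -2.13 in knockout libraries 1 to 4. Knockout libraries 1 and 2 were far below every control, and knockout libraries 3 and 4 were inside the control range. Within the sets the differences were -2.08 and -0.15, and the mean difference of -1.11 ± 0.61 (SE) had a limma adjusted p of 0.287. HAS3 was -3.68, -3.57, -3.05 and -2.49 in control libraries 1 to 4 and -2.98, -3.00, -1.47 and -1.16 in knockout libraries 1 to 4. Here knockout libraries 3 and 4 stood above every control, and the mean difference of 1.05 ± 0.49 (SE) had a limma adjusted p of 0.223. A term for replicates 1 and 2 against 3 and 4 brought HAS3 to 0.0189 and left HAS2 at 0.105. In GENCODE 29, HAS2 exons overlap HAS2-AS1 and HAS3 exons overlap CHTF8, each on the opposite strand.

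The 3 enzymes that supply precursors were all lower on average. PAPSS1 makes the activated sulfate used by every sulfotransferase named above. It was 4.30, 4.38, 4.13 and 4.28 in control libraries 1 to 4 and 4.02, 4.03, 3.77 and 3.77 in knockout libraries 1 to 4, with no overlap. The log2 difference was -0.38 ± 0.09 (SE), a level 0.771 times that of the controls (limma adjusted p = 0.0319), and was -0.32 and -0.43 in the sets of replicates. The call was lost without control libraries 1, 2 and 4 (0.0955, 0.103 and 0.0944), without knockout libraries 3 and 4 (0.0736 and 0.0632), with no filter on low values (0.0534) and with knockout pairs averaged (0.143). PAPSS2, the second enzyme with this activity, was 2.91 to 3.23 in the controls, 3.28 in both knockout libraries 1 and 2, and 2.72 and 2.70 in knockout libraries 3 and 4 (95% interval of the difference -0.49 to 0.23). UGDH, which makes the UDP-glucuronic acid that all 3 kinds of chain contain, was 4.07, 4.07, 3.84 and 3.96 in control libraries 1 to 4 and 3.87, 3.91, 3.16 and 3.17 in knockout libraries 1 to 4. Its difference of -0.46 ± 0.19 (SE) did not pass the test (limma adjusted p = 0.142) and came mostly from replicates 3 and 4 (-0.74, against -0.18).

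**Figure D2:**
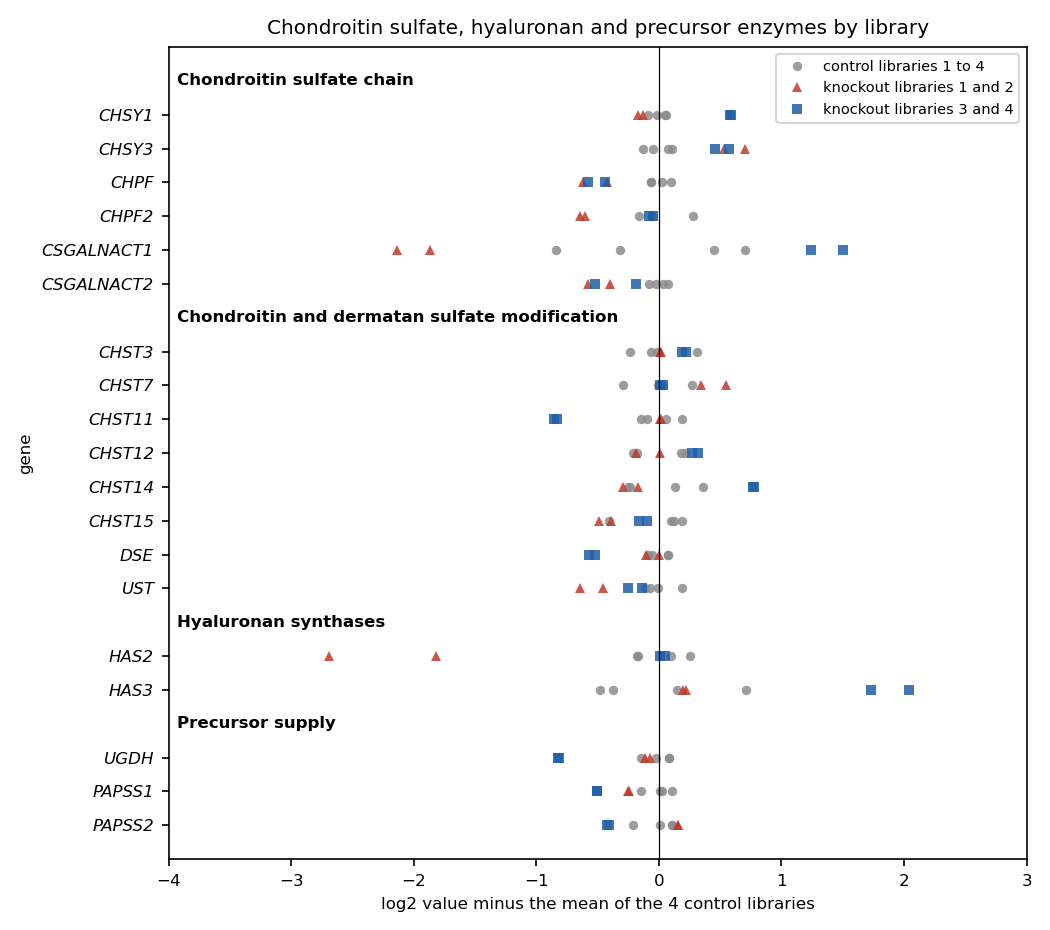
Log2 value of each library minus the mean of the 4 control libraries (x axis) for the 19 tested chondroitin sulfate, hyaluronan and precursor enzymes (y axis, grouped by role), with symbols as in the plot of heparan sulfate enzymes: grey circles for controls, red triangles for knockout libraries 1 and 2, blue squares for knockout libraries 3 and 4. CHPF, CSGALNACT2 and PAPSS1 lie left of their controls and CHSY3 right of them in all 4 knockout libraries, and CSGALNACT1 and HAS2 show the widest gaps between the knockout pairs.

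**Figure D3:**
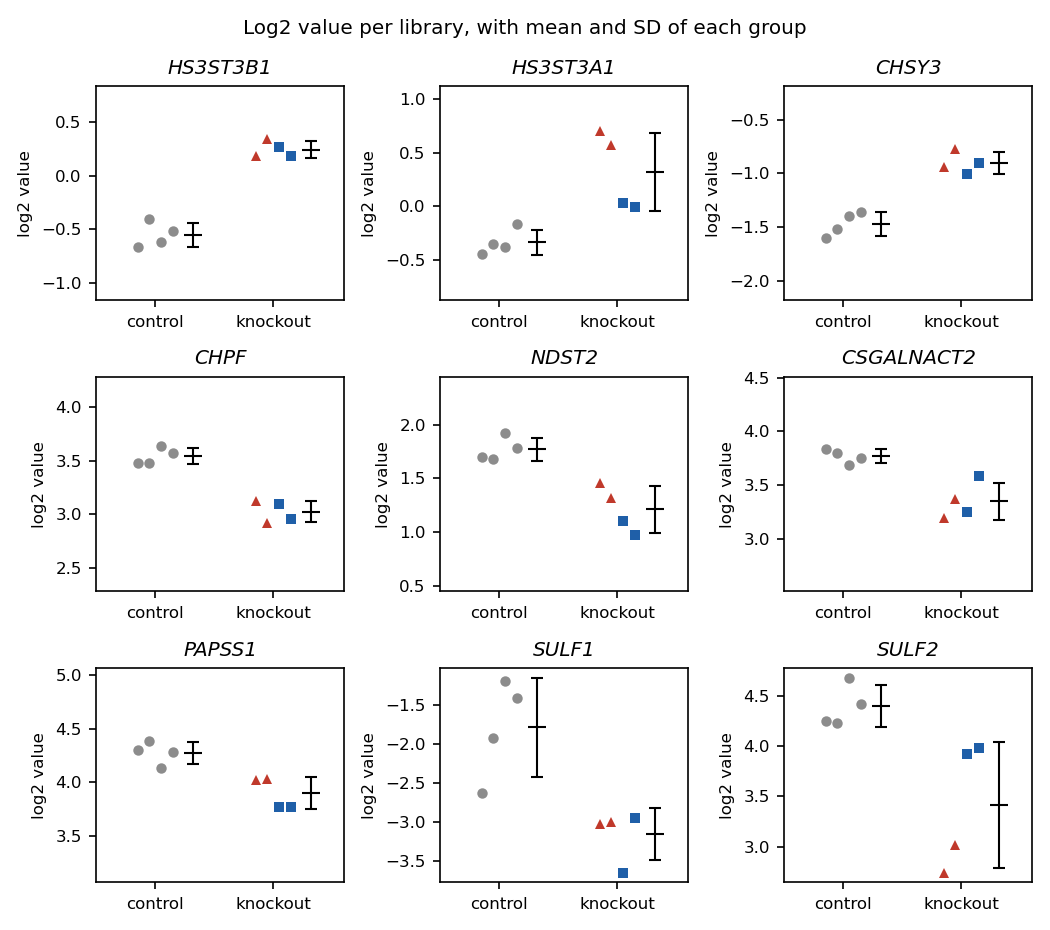
Deposited log2 value (y axis) in each control library (grey circles), knockout libraries 1 and 2 (red triangles) and knockout libraries 3 and 4 (blue squares) for the 7 changed enzymes and for HS3ST3A1 and SULF2, with the mean and SD of each group (n = 4) as a black bar. Each panel has its own y axis, and in none of the 9 panels do control and knockout values overlap.

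How far the enzymes agreed between the sets of replicates is shown by the plot of both differences. For 14 of the 39 enzymes (35.9%) the difference changed sign between replicates 1 and 2 and replicates 3 and 4, as it did for 43.5% of all genes with 8 values. The gap between the means of the knockout pairs was wider than the whole control range for 22 of the 39 (56.4%), against 50.7% of all genes, so the enzymes were near the background on both counts. The 7 changed enzymes each had 1 sign in both sets, which passing the test makes likely. A term for replicates 1 and 2 against 3 and 4 brought the count of called enzymes to 8 of 26 and 5 of 13, where 25.2% of the 9016 genes and 18.4% of the 13943 were called. SULF2, EXT1, UGDH and CHPF2 joined the first group and HS3ST3A1 and HAS3 the second.

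**Figure D4:**
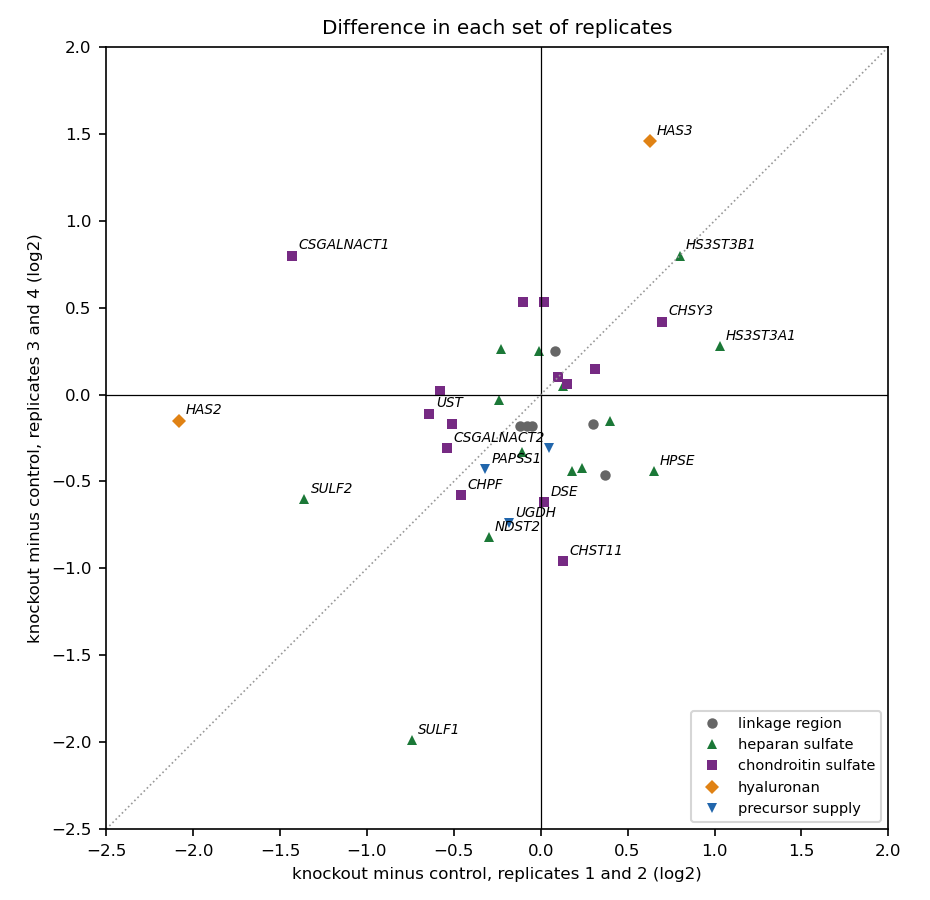
Log2 difference between knockout and control within replicates 1 and 2 (x axis) and within replicates 3 and 4 (y axis) for the 39 tested enzymes, coloured by the kind of chain, with a dotted line of equality; names are given for the changed enzymes and for those with a difference of at least 0.6 in size in either set. HS3ST3B1 lies on the line at 0.80 and 0.80, CSGALNACT1 is at -1.43 and 0.80, and HAS2 is at -2.08 and -0.15.

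Genes that surround these enzymes were read from 5 lists written from general knowledge: breakdown enzymes, sugar nucleotide enzymes and transporters, other chain enzymes, core proteins and hyaluronan binding proteins. Together they held 51 tested genes that were not among the 41, of which 10 were called, 5 higher and 5 lower, where 13.1% of all 9016 genes were called, 7.02% higher and 6.10% lower. Of 16 tested genes for sugar nucleotides and their transport, 2 fell and none rose, a share near that of 13.1% over all genes, with a median difference of -0.11 over the list against 0.01 over all tested genes. GFPT2, which commits fructose phosphate to the hexosamine pathway, fell from a control mean of 6.02 ± 0.08 to a knockout mean of 5.23 ± 0.27 (SD over 4 libraries; limma adjusted p = 0.00822). PGM3, further down the same route, fell from 3.46 ± 0.14 to 3.10 ± 0.15 (SD over 4 libraries; limma adjusted p = 0.0486). Of 11 tested breakdown genes, SUMF2, a relative of the sulfatase-activating enzyme, fell by 0.52 on the log2 scale (limma adjusted p = 0.00944). None of the 5 tested other chain enzymes was called by limma (1 had an unadjusted p-value under 0.05).

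Of 16 tested core proteins that carry the chains or bind them, 1 rose and 2 fell, where 7.02% of all genes were called higher and 6.10% lower. SRGN, the intracellular proteoglycan serglycin, rose by 1.36, while SDC4, a heparan sulfate carrying syndecan, fell by 0.76 and VCAN, the chondroitin sulfate proteoglycan versican, fell by 0.51 (limma adjusted p = 0.00762, 0.0110 and 0.0261). SRGN was the one of these genes still under 0.05 with knockout pairs averaged (0.0468). Of 4 tested hyaluronan binding genes, 3 rose: HABP4 by 0.59, LAYN, a membrane receptor for hyaluronan, by 0.46 and HMMR, a hyaluronan receptor that also acts on the mitotic spindle, by 0.36 (limma adjusted p = 0.0223, 0.0126 and 0.0330). Among all genes 7.02% were called higher, and a list of 4 is too short to be read as a group. With the replicate block HABP4 and HMMR were lost (0.0541 and 0.0777), which left 1 of the 4, and with knockout pairs averaged the lowest limma adjusted p among the 4 was 0.0869, for HABP4. SUMF2, GFPT2, SRGN, SDC4 and LAYN were called in all 8 fits that left out a library, and HABP4, VCAN, HMMR and PGM3 in 5, 4, 2 and 1 of them.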

How the data were processed

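RNA from 8 libraries of 143B cells was measured, 4 per group, extracted with TRIzol and prepared with a stranded total RNA kit, per the labels' protocols. The authors deposited 1 log2 value per symbol and library. The submitters' processing notes name bcl2fastq, Partek 7.0 and GRCh38 without saying what each did; the aligner, the counter, the annotation, the unit before the logarithm and the meaning of blank cells are not given in the sources used here. Base 2 was inferred from the range, and every library had the same median (1.77) and extremes (-10.5 and 12.1), which shows quantile normalization of the deposited log2 values; a shift shared by most genes cannot be seen in them. Blank cells were treated as missing. Depth is unknown. P-values measure the spread between the libraries of a group, which may be technical.

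The 9016 genes with 8 values and a mean of at least 1 were fitted with limma 3.58.1 in R 4.3.3, knockout against control with no covariate, with Benjamini-Hochberg adjustment over all of them and calls under 0.05. Genes with 8 values and a lower mean were read from the same fit on 13943 genes. Named genes were all called enzymes, the 4 largest differences among the others, paralogue pairs and up to 3 called genes per surrounding list; other enzymes are described by ranges or because their libraries separate. The members, lists and alternatives were chosen with earlier results of these data known. The deviations of same-numbered libraries from their group means correlated at 0.237, 0.274, 0.289 and 0.195. Libraries with different numbers were not compared in this way, so these values cannot show that the numbers are a pairing. The main fit did not use the numbers. Values from a fit with the number as a block are given for named genes where they change a call. Promoters and gene positions came from RefSeq (GRCh38.p14); overlaps and shared windows of 50 bases came from GENCODE 29. Some values for genes of the surrounding and marker lists are not reported here, although the counts over those lists include them.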

Additional observations from a re-analysis of the deposited data

Results flagged for a closer look

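Each of the 39 enzymes was examined in both groups of 4 libraries, 78 groups in all, for a library whose gap to its nearest neighbour, as a share of the group's range, exceeded Dixon's 95% critical value (which chance alone exceeds in about 1 of 20 groups), and 4 were found. SULF1 was -3.65 in knockout library 3, with the other knockout libraries between -3.03 and -2.95; without that library its log2 difference was -1.20 (limma adjusted p = 0.0948). CHST15 was 0.40 in control library 3, with the other controls between 0.91 and 1.00. EXTL3 was 3.18 in control library 3, against 3.05 to 3.06 in the others. EXT2 was 2.65 in control library 2, against 2.51 to 2.53 in the others.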

How the results depend on the processing

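The 11 enzymes named for a call or a large difference kept their direction in all 212 readings under the alternatives. Of these, 161 also stayed on the same side of the threshold, 37 lost the call and 14 gained it. The alternative of an adjusted p under 0.01 was the main fit at a stricter cutoff. It could change a call but not a direction. Of all 39 enzymes, 6 were called in 1 fit with no filter on low values, and 7 when a variance trend and robust estimation were added. Of 26 enzymes with a mean of at least 1, 4 were called. That count was 8 with a term for replicates 1-2 against 3-4, 13 in replicates 1-2 only and 14 in replicates 3-4 only. It was 0 with knockout pairs averaged (unadjusted, 7), 1 at an adjusted p under 0.01, and 1 to 4 when 1 library was left out. With the replicate number as a block it was 5. Of the 13 enzymes with a mean under 1, 3 were called; the count was 1 with the replicate block, 5 with the term, 9 in replicates 1-2 only, 6 in replicates 3-4 only, 0 with pairs averaged (unadjusted, 5), 1 at an adjusted p under 0.01, and 1 to 3 with 1 library left out. For the 51 list genes (10 called) these were 30 in replicates 1-2, 22 in replicates 3-4, 1 with pairs averaged, 3 at an adjusted p under 0.01 and 5 to 11 with 1 library left out. For all 9016 genes with a mean of at least 1, 1183 were called. The count was 924 with the replicate block, 2274 with the term, 5380 in replicates 1-2, 2987 in replicates 3-4 and 108 with pairs averaged. An adjusted p under 0.01 gave 272, and leaving out 1 library gave 391 to 1353. Of the 4684 genes with a mean of at least 3, 729 were called. In the fit of all 13943 genes, from which the 13 were read, 1157 were called. There the count was 421 with the replicate block, 2559 with the term, 4873 in replicates 1-2, 2258 in replicates 3-4 and 1 with pairs averaged. It was 148 at an adjusted p under 0.01 and 228 to 1413 with 1 library left out.

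Among these alternatives the direction reversed for 15 enzymes, none of them called. In replicates 1-2 only, the log2 difference was reversed for XYLT1 (0.37), EXT2 (-0.01), EXTL2 (0.24), EXTL3 (-0.23), HS2ST1 (0.18), CHSY1 (-0.10), CHST11 (0.13), DSE (0.02) and PAPSS2 (0.05), and in replicates 3-4 only for B4GALT7 (-0.17), HS6ST1 (-0.15), CSGALNACT1 (0.80), CHST15 (0.02) and HPSE (-0.44). A pseudocount of 1 reversed CSGALNACT1 (0.04). Leaving out 1 library at a time gave ranges that crossed or touched 0 for XYLT1 (-0.15 to 0.07), B4GALT7 (-0.04 to 0.18), B3GALT6 (-0.22 to 0.06), EXTL2 (-0.21 to 0.03), EXTL3 (-0.08 to 0.11), HS2ST1 (-0.26 to 0.00), HS6ST1 (0.00 to 0.30), CSGALNACT1 (-0.92 to 0.30) and HPSE (-0.11 to 0.30). The cause was not tested. With the blank NELL1 cell filled by that library's minimum, knockout minus control was -1.16 (exact permutation test, p = 0.543). Depth is unknown, so no detection limit can be given for enzymes with low signal.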
